A study of Homo sapiens with 9 samples.

Results

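The NF-kB genes described here are 10 of the 63241 human genes in the deposited tables, taken as the rows whose Ensembl identifier maps to one of the listed symbols. They are the 5 DNA-binding subunits NFKB1, NFKB2, RELA, RELB and REL, the inhibitors NFKBIA, NFKBIE and TNFAIP3, the ubiquitin ligase BIRC3 and the kinase IKBKB. Of these, 9 were among the 14592 genes with enough counts to be tested, and BIRC3 was not. The libraries are of poly(A) RNA from MEG-01, a line of human megakaryoblasts that came from a chronic myeloid leukaemia in blast crisis, in 3 groups of 3. The groups were cells given As2S2 (arsenic disulfide), cells given PMA (a phorbol ester that activates protein kinase C) and control cells labelled with neither. Neither the dose nor the length of treatment is in the labels, all groups are the same line, and nothing says that the replicates were separate cultures. The p-values therefore rest on the spread of these libraries alone, and that spread may be technical.

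NF-kB transcription factors are dimers of Rel-family proteins. In resting cells, inhibitors of the IkB family hold them in the cytoplasm, and the canonical route begins when the kinase complex IKK, with IKBKB as its main catalytic subunit, marks IkB for destruction. NFKBIA, NFKBIE, TNFAIP3 and BIRC3 are themselves induced by NF-kB in many cell types, so that the first 3 close negative feedback loops, while NFKB2 and RELB form the dimer of the slower noncanonical route. Protein kinase C is a textbook activator of the canonical route in blood cells, and arsenicals are known to inhibit IKBKB through a cysteine of the kinase.

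The starts of these genes were searched first for the NF-kB consensus, because NF-kB acting on its own subunit and inhibitor genes is the textbook basis of the feedback. The consensus is the degenerate motif of 10 bases bound by NF-kB dimers, and it was searched on both strands of a window of 250 bases before to 50 bases after each RefSeq start in GRCh38.p14. The search covered 7 of the 10 genes, with 11 starts between them, and did not cover RELB, NFKBIE or IKBKB. The chromosome of IKBKB was left out of the search of these genes, though not of the shares over all genes. Whether IKBKB holds the motif is therefore not known here. The consensus lay at 1 or more starts of 6 genes, NFKB1, NFKB2, REL, NFKBIA, TNFAIP3 and BIRC3, and at neither of the 2 starts of RELA. Over all genes in the table, 13.3% held it at 1 or more starts, and 11.3% of all 35114 windows did. The NF-kB genes were chosen as parts of this feedback, so a share above that of all genes may come from that choice. The exact motif GGGACTTTCC, found at NFKB2 and on the other strand at TNFAIP3, was in 0.191% of all windows. GGGAATTTCC, found at NFKB1 and on the other strand at NFKBIA and REL, was in 0.145%. Both forms were taken from the windows of NFKB2 and NFKB1 themselves, so their low shares lend no weight to a site there. A match describes letters in the window and is not a measured binding site. The stretches are shown because they let the genes that moved (NFKB1, NFKB2, NFKBIA and TNFAIP3) be set beside a pair that carried the motif and had few counts (REL and BIRC3). They are written 5′ to 3′ on the strand of the gene, and capitals mark the bases of a match on either strand; 11 capitals in a run are 2 matches that overlap.
NFKB1 (chr4:102501300-102501329, plus strand): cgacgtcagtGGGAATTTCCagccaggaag
NFKB2, the middle of its 3 starts (chr10:102394462-102394490, plus strand): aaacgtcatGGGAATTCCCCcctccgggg
NFKB2, the last of its 3 starts (chr10:102395674-102395703, plus strand): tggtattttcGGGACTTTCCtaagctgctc
REL (chr2:60881518-60881546, plus strand): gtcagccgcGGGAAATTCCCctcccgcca
NFKBIA (chr14:35404750-35404999, minus strand): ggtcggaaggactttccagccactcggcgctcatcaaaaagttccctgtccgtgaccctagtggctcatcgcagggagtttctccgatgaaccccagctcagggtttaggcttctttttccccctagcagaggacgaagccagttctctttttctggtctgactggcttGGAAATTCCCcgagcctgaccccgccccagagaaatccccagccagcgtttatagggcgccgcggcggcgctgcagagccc
TNFAIP3 (chr6:137867188-137867217, plus strand): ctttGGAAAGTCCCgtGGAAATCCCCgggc
BIRC3 (chr11:102317275-102317304, plus strand): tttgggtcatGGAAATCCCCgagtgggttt

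**Figure D1:**
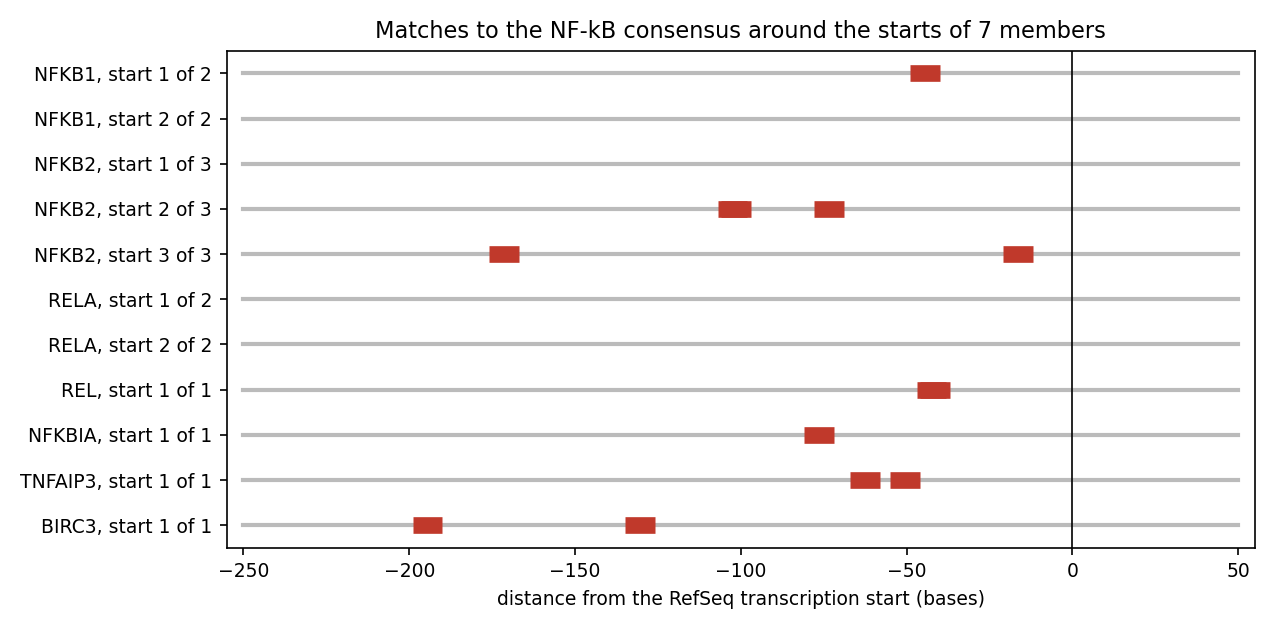
Matches to the NF-kB consensus (red) along the window around each RefSeq start of 7 of the NF-kB genes, with the distance from the start in bases on the x axis and one line for each of the 11 starts. At 7 starts a match lies before the start, from position -199 in BIRC3 to position -12 in NFKB2, and 4 starts, among them both of RELA, have none.

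Library totals ran from 18.2 to 20.37 in units of 1e6 estimated counts. As2S2 replicate 1 and control replicate 2 differed more than the rest from their own groups: the chi-square per gene between libraries of a group was 12 to 15.2 for pairs with either of them and 2.42 to 3.46 for the other pairs. Values that turn on these libraries are given below with and without them. All 12 megakaryocyte markers looked for had counts. ITGA2B, a platelet integrin chain, averaged 138 TPM with As2S2, 68.3 TPM with PMA and 190 TPM in control, its partner ITGB3 averaged 19.4 TPM with As2S2, 51.5 TPM with PMA and 11.7 TPM in control, and PF4, a platelet granule chemokine, had 0, 2 and 1 counts over the 3 libraries of As2S2, PMA and control. On the TPM scale (transcripts per 1e6 transcripts, which corrects for length) the median of all tested genes was shifted by -0.26 for PMA minus control and by 0.18 for As2S2 minus PMA (log2(TPM + 1)). The fits below use counts with TMM scaling, where the median of all genes was near 0. That scaling assumes that most genes do not change and itself brings the median near 0. The median therefore cannot show which scale is right. For several genes whose call or direction differed between the scales, both values are given. The sizes of other differences also depend on the scale. Mean TPM of NFKBIA was 14.93 with PMA and 10.04 in control, a smaller step than its 2.13-fold change in counts. Mean TPM of NFKB1 was 6.043 with PMA and 13.69 in control, a larger step than its 0.608-fold change in counts. Under limma on log2(TPM + 1), the split of all called genes was 1971 higher and 6984 lower for PMA minus control, against 4494 and 4540 in the count fit. For As2S2 minus control the TPM split was 1685 higher and 3066 lower, against 2962 and 2859, and for As2S2 minus PMA it was 5968 and 2320, against 4503 and 4463.

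Among the NF-kB genes, NFKB2 and RELB rose with As2S2, NFKB1 fell with both agents, and NFKBIA rose with both. With As2S2, 7 of the 9 tested genes passed the threshold of an adjusted p under 0.05 (edgeR): 5 were higher (NFKB2, RELB, NFKBIA, NFKBIE and TNFAIP3) and 2 were lower (NFKB1 and IKBKB). In that comparison 39.9% of all tested genes passed, 20.3% of them higher and 19.6% lower. With PMA, 4 of 9 passed, where 61.9% of all tested genes did (30.8% higher and 31.1% lower): NFKBIA was higher, and NFKB1, NFKB2 and IKBKB were lower. The median log2 fold change of the 9 genes was 0.28 with As2S2 and 0.02 with PMA, with the median of all tested genes at 0.00 in both. In As2S2 minus PMA, tested directly, 6 of 9 passed, 5 higher and 1 lower, with 61.4% of all tested genes passing (30.9% higher and 30.6% lower). The As2S2 and PMA comparisons share the same control libraries, so their values are set side by side here and not correlated. In bulk RNA, fewer cells expressing a gene and less RNA per cell cannot be told apart.

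**Figure D2:**
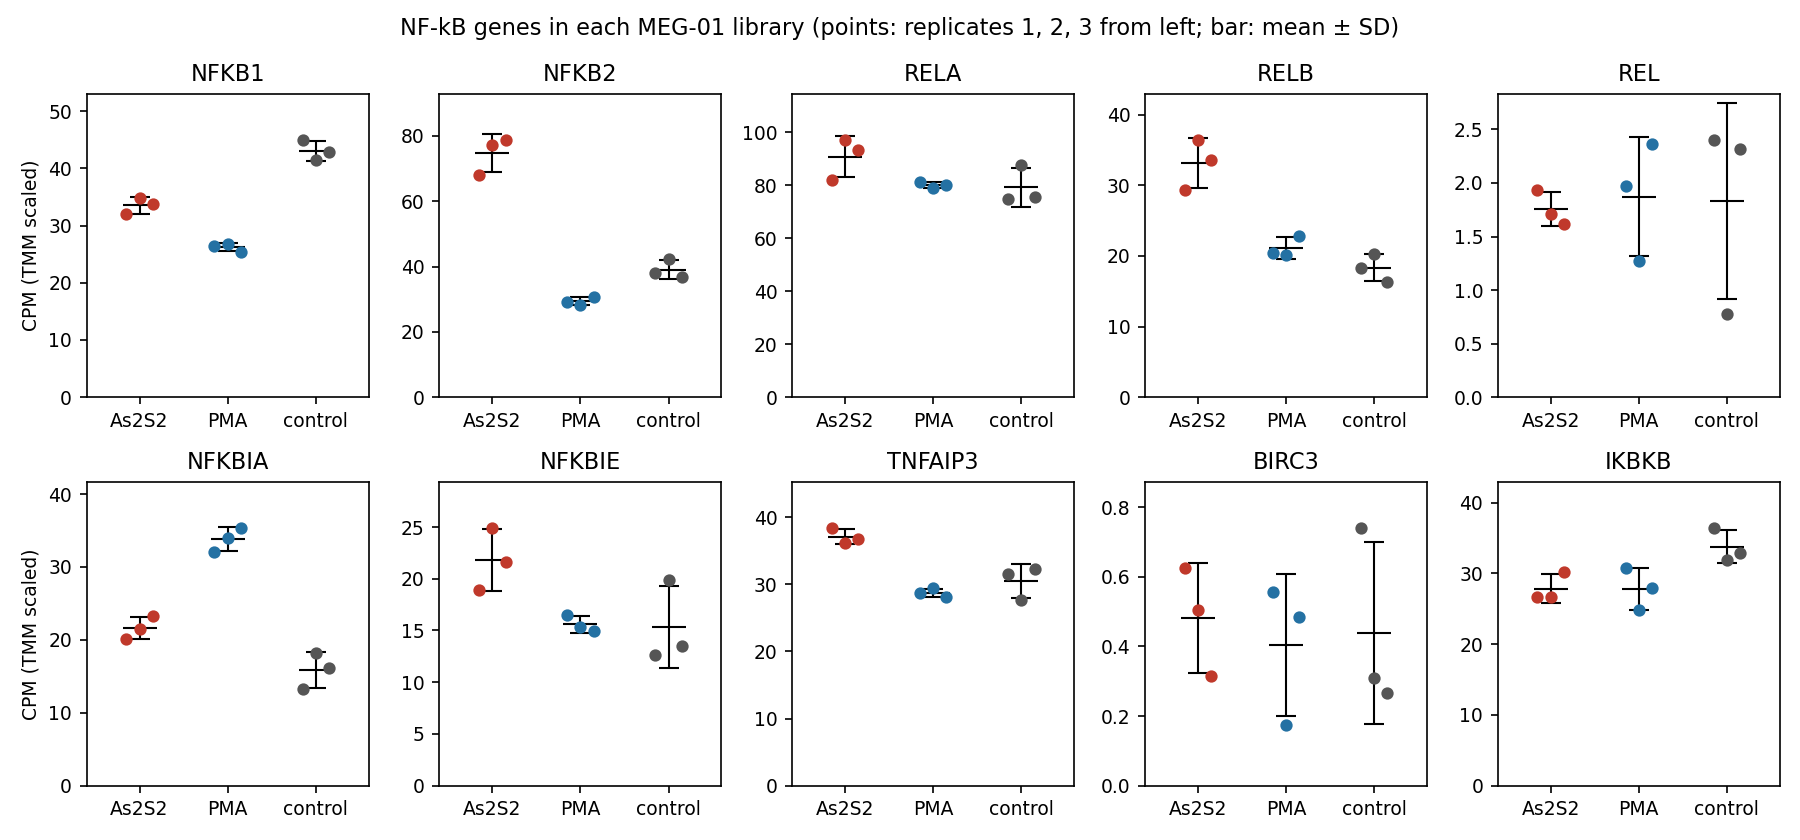
TMM-scaled counts per 1e6 counts of a library (CPM, y axis) of the 10 NF-kB genes in each library, with As2S2, PMA and control from left to right, points for replicates 1 to 3 and bars for the mean and SD of 3 libraries. NFKB2 and RELB stand highest in the As2S2 libraries (NFKB2 68.0 to 78.8 CPM), NFKBIA stands highest in the PMA libraries (32.1 to 35.3 CPM), and REL and BIRC3 are at or under 2.40 CPM in all.

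NFKB2 (ENSG00000077150), the precursor whose processing gives the noncanonical subunit, was the subunit that moved furthest from control with As2S2. With PMA the subunit that moved furthest was NFKB1. NFKB2 stood at 68.0, 77.2 and 78.8 CPM in the As2S2 libraries, 29.2, 28.3 and 30.6 CPM in the PMA libraries and 38.03, 42.4 and 36.7 CPM in the control libraries. The 3 groups did not overlap, with As2S2 above control and PMA below it. The log2 fold change was 0.94 ± 0.09 (SE of the fit, n = 3 each) for As2S2 minus control, which is 1.91-fold (edgeR adjusted p = 6.56e-07). It was -0.41 ± 0.09 for PMA minus control (edgeR adjusted p = 0.00088). Tested directly, As2S2 minus PMA was 1.35 ± 0.09 (edgeR adjusted p = 2.38e-09), the largest of the differences among these genes in any of the 3 comparisons. Leaving out any 1 library kept the As2S2 value between 0.90 and 1.003 and the PMA value between -0.46 and -0.36.

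RELB (ENSG00000104856), the partner of the processed NFKB2 protein, was higher with As2S2 as well. It measured 29.4, 36.5 and 33.6 CPM in the As2S2 libraries, 20.4, 20.1 and 22.9 CPM in the PMA libraries and 18.3, 20.2 and 16.4 CPM in the control libraries. Each As2S2 library was above every other library, whereas PMA and control overlapped. As2S2 minus control was 0.86 ± 0.11 on the log2 scale, or 1.81-fold (edgeR adjusted p = 1.52e-05), and As2S2 minus PMA was 0.65 ± 0.11 (edgeR adjusted p = 7.89e-05). PMA minus control was 0.21 ± 0.11 and did not pass (edgeR adjusted p = 0.118; 95% interval -0.01 to 0.43). That comparison passed without control replicate 2, at 0.28 (edgeR adjusted p = 0.0423), and on the log2(TPM + 1) scale it turned to -0.13 without passing (limma adjusted p = 0.375).

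NFKB1 (ENSG00000109320), the precursor of the canonical DNA-binding subunit, was lower with both agents. It measured 32.0, 34.8 and 33.8 CPM with As2S2, 26.4, 26.9 and 25.5 CPM with PMA and 45.01, 41.5 and 42.8 CPM in control. No group overlapped another, and the control libraries were the highest. The log2 fold change was -0.36 ± 0.08 for As2S2 minus control (edgeR adjusted p = 0.00238) and -0.72 ± 0.08 for PMA minus control (edgeR adjusted p = 1.64e-06). NFKB1 was 0.35 ± 0.08 higher in As2S2 than in PMA (edgeR adjusted p = 0.00176). These directions held under all the alternatives run, with -0.39 to -0.32 for As2S2 and -0.75 to -0.69 for PMA when 1 library was left out.

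RELA (ENSG00000173039), the main transactivating subunit, had the smallest fitted differences from control among the abundant subunits. It measured 82.1, 97.2 and 93.4 CPM with As2S2, 81.2, 79.0 and 80.2 CPM with PMA and 74.7, 87.7 and 75.5 CPM in control. As2S2 overlapped control through As2S2 replicate 1 and control replicate 2, the libraries that stood apart. As2S2 minus control was 0.20 ± 0.08 on the log2 scale and did not pass (edgeR adjusted p = 0.0713; 95% interval 0.03 to 0.36). It passed without As2S2 replicate 1, at 0.27 (edgeR adjusted p = 0.0107), without control replicate 2, at 0.28 (edgeR adjusted p = 0.00791), and with neither in the fit, at 0.35 (edgeR adjusted p = 9.01e-06). PMA minus control was 0.02 ± 0.08 (edgeR adjusted p = 0.878; 95% interval -0.15 to 0.18), and on the log2(TPM + 1) scale it was -0.31 (limma adjusted p = 0.00805). As2S2 minus PMA was 0.18 ± 0.08 (edgeR adjusted p = 0.0717), which passed without As2S2 replicate 1 (0.26, edgeR adjusted p = 0.00849). It also passed without control replicate 2 (0.19, edgeR adjusted p = 0.0238), without the low-count filter (edgeR adjusted p = 0.0466) and when only these 2 groups were fitted (edgeR adjusted p = 0.0423). All As2S2 libraries were above all PMA libraries for RELA, the lowest and the highest being 82.1 and 81.2 CPM.

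REL (ENSG00000162924), the subunit known for its role in lymphoid cells, had few counts. Its estimated counts were 37.2, 34.0 and 31.3 with As2S2, 31.9, 21.9 and 43.5 with PMA and 51.8, 15.3 and 52.2 in control. The groups overlapped in every comparison, and none of the 9 estimates was a whole number. The gene overlaps AC010733.2 on the same strand, which had 444.9 estimated counts against 319.2 for REL over 9 libraries, so the share of reads assigned to each is uncertain. The fitted differences were -0.08 ± 0.34, 0.02 ± 0.34 and -0.10 ± 0.35 for As2S2 minus control, PMA minus control and As2S2 minus PMA, with edgeR adjusted p of 0.879, 0.967 and 0.826. The 95% intervals were -0.74 to 0.59 for As2S2 minus control and -0.65 to 0.69 for PMA minus control, and control replicate 2 had fewer counts than any other library.

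**Figure D3:**
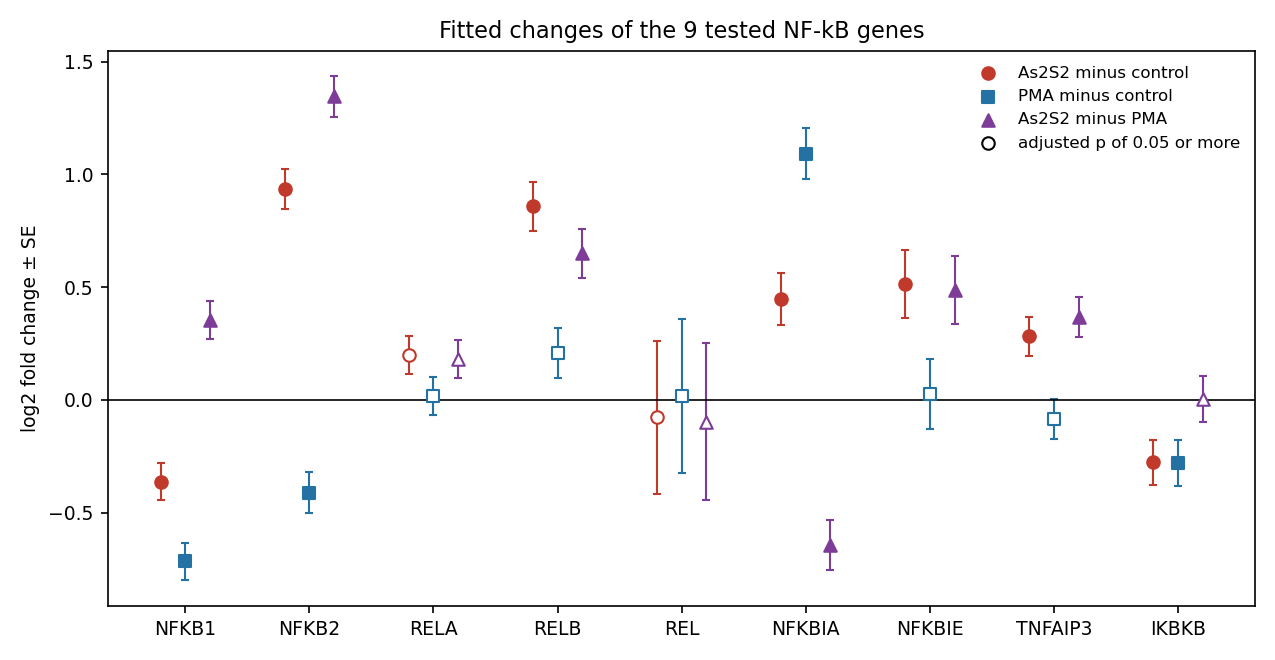
Fitted log2 fold change (y axis, bars are SE of the edgeR fit) of the 9 tested NF-kB genes for As2S2 minus control, PMA minus control and As2S2 minus PMA, with open symbols for an adjusted p of 0.05 or more. NFKB2 lies at 0.94 with As2S2 and -0.41 with PMA, and NFKBIA lies above 0 in both at 0.45 with As2S2 and 1.09 with PMA.

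Set beside each other per length, the subunit transcripts had a different make-up in each group. NFKB2 held 42.9 ± 1.58% of the summed TPM of the 5 subunits with As2S2, 27.4 ± 0.639% with PMA and 30.5 ± 1.95% in control (SD, n = 3 each). The NFKB1 share was 9.37 ± 0.23% with As2S2, 11.7 ± 0.984% with PMA and 18.3 ± 0.324% in control, so that control libraries had the highest share in every case. RELA held 33.0 ± 1.88% with As2S2, 45.6 ± 2.82% with PMA and 39.5 ± 1.2% in control. These are shares of one total, so a rise in one lowers the others. The ratio of NFKB2 TPM to NFKB1 TPM was 4.58 ± 0.0975 with As2S2, 2.35 ± 0.167 with PMA and 1.67 ± 0.125 in control, and the groups did not overlap. RELB over RELA was 0.443 ± 0.0362 with As2S2, 0.334 ± 0.0797 with PMA and 0.292 ± 0.0273 in control. PMA replicate 3, at 0.42, was above As2S2 replicate 3, at 0.408, so these groups overlapped, and the RELB share was 14.6 ± 0.594% with As2S2, 15.1 ± 2.78% with PMA and 11.5 ± 1.08% in control. The shares and ratios are within a library and do not move with its scaling.

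**Figure D4:**
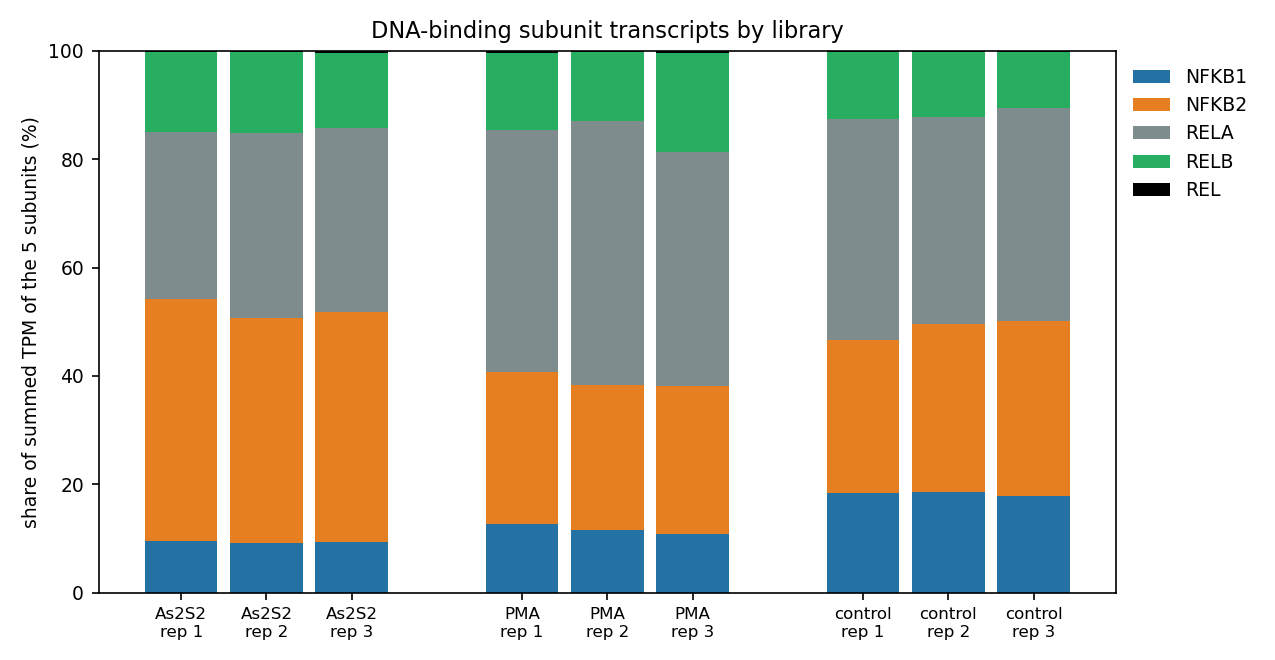
Share of the summed TPM of the 5 DNA-binding subunits (y axis, percent) taken by each subunit in each library, with As2S2, PMA and control libraries from left to right. NFKB2 takes 41.6 to 44.7% of the As2S2 libraries, RELA takes 43.3 to 48.7% of the PMA libraries, and NFKB1 takes 17.9 to 18.6% of the control libraries.

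By mean TPM, NFKB2 led in As2S2 cells (41.0 ± 1.09), followed by RELA (31.6 ± 2.13), RELB (14.0 ± 0.527) and NFKBIA (12.6 ± 0.775), none of which overlapped its neighbour. In PMA cells RELA led (23.7 ± 2.37), and the next places, NFKBIA (14.9 ± 1.66) and NFKB2 (14.2 ± 0.512), overlapped. In control cells the order was RELA (29.5 ± 1.03), NFKB2 (22.9 ± 2.72) and NFKB1 (13.7 ± 0.953), without overlap. IKBKB, NFKBIA, RELB, NFKBIE and TNFAIP3 followed between 10.3 and 6.07 TPM in control, each overlapping its neighbour. REL and BIRC3 were last in all groups, at 0.11 to 0.17 TPM on average, and overlapped each other.

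The inhibitor NFKBIA (ENSG00000100906), the IkB protein that ends a canonical response by carrying NF-kB back out of the nucleus, was higher with both agents. It measured 20.1, 21.6 and 23.2 CPM in the As2S2 libraries, 32.1, 34.0 and 35.3 CPM in the PMA libraries and 13.3, 18.2 and 16.2 CPM in the control libraries. No group overlapped another, with PMA above As2S2 and As2S2 above control. The log2 fold change was 0.45 ± 0.11 for As2S2 minus control (1.36-fold, edgeR adjusted p = 0.00519) and 1.09 ± 0.11 for PMA minus control (2.13-fold, edgeR adjusted p = 3.81e-07). As2S2 minus PMA was -0.64 ± 0.11 (edgeR adjusted p = 9.65e-05), and on the log2(TPM + 1) scale it was -0.22 and did not pass (limma adjusted p = 0.0936). The ratio of NFKBIA TPM to RELA TPM was 0.399 ± 0.0137 with As2S2, 0.634 ± 0.0909 with PMA and 0.34 ± 0.0276 in control.

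NFKBIE (ENSG00000146232), the IkB protein that also binds RELA and REL dimers, was higher with As2S2 by a margin that rested on single libraries. It measured 18.9, 24.9 and 21.6 CPM with As2S2, 16.5, 15.3 and 14.96 CPM with PMA and 12.6, 19.9 and 13.5 CPM in control. As2S2 overlapped control because control replicate 2 was above As2S2 replicate 1, and As2S2 did not overlap PMA. As2S2 minus control was 0.51 ± 0.15 (edgeR adjusted p = 0.0121), and it did not pass without As2S2 replicate 2 (0.42, edgeR adjusted p = 0.0654), without control replicate 1 (0.40, edgeR adjusted p = 0.0613) or without control replicate 3 (0.43, edgeR adjusted p = 0.0575). On the log2(TPM + 1) scale it was 0.23 (limma adjusted p = 0.291). As2S2 minus PMA was 0.49 ± 0.15 (edgeR adjusted p = 0.0105), which did not pass without As2S2 replicate 2 (0.39, edgeR adjusted p = 0.0551) or on TPM centred on each library's median (0.31, limma adjusted p = 0.147). PMA minus control was 0.03 ± 0.15 (edgeR adjusted p = 0.891; 95% interval -0.28 to 0.33) and turned to -0.31 on the log2(TPM + 1) scale.

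TNFAIP3 (ENSG00000118503), the ubiquitin-editing enzyme that shuts down signalling above IKK, was slightly higher with As2S2. It measured 38.3, 36.2 and 36.8 CPM in the As2S2 libraries, 28.7, 29.4 and 28.1 CPM in the PMA libraries and 31.6, 27.6 and 32.3 CPM in the control libraries. Every As2S2 library was above every other library, and PMA overlapped control. As2S2 minus control was 0.28 ± 0.09 (edgeR adjusted p = 0.0175), and it did not pass without control replicate 2 (0.22, edgeR adjusted p = 0.0513), without the low-count filter (edgeR adjusted p = 0.055) or when only these 2 groups were fitted (edgeR adjusted p = 0.0683). On the log2(TPM + 1) scale it was 0.10 (limma adjusted p = 0.549), and the authors' deposited table gives 0.27 with an adjusted p of 0.0597. As2S2 minus PMA was 0.37 ± 0.09 (edgeR adjusted p = 0.00185). PMA minus control was -0.09 ± 0.09 (edgeR adjusted p = 0.418; 95% interval -0.26 to 0.09), and on the log2(TPM + 1) scale, where the median of all tested genes was at -0.26, it was -0.50 (limma adjusted p = 0.00335).

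BIRC3 (ENSG00000023445), an inhibitor-of-apoptosis ubiquitin ligase and a widely used NF-kB target, was hardly detected. It had 12, 10 and 6 counts in the As2S2 libraries, 9, 3 and 9 counts in the PMA libraries and 16, 6 and 6 counts in the control libraries. The groups overlapped, and the sums of 28, 21 and 28 counts in As2S2, PMA and control were too low for the test. IKBKB (ENSG00000104365), the kinase, was lower with both agents. It measured 26.7, 26.6 and 30.2 CPM with As2S2, 30.7, 24.8 and 27.9 CPM with PMA and 36.4, 31.9 and 32.9 CPM in control. Control libraries were above all others, while As2S2 and PMA overlapped. The log2 fold change was -0.28 ± 0.10 for As2S2 minus control (edgeR adjusted p = 0.0374) and -0.28 ± 0.10 for PMA minus control (edgeR adjusted p = 0.0241). As2S2 minus PMA was 0.00 ± 0.10 (edgeR adjusted p = 0.988; 95% interval -0.20 to 0.20).

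Both IKBKB calls were close to the threshold. The As2S2 value did not pass without As2S2 replicate 1 (-0.24, edgeR adjusted p = 0.0807), As2S2 replicate 2 (-0.24, edgeR adjusted p = 0.131) or PMA replicate 3 (-0.27, edgeR adjusted p = 0.0582). It also did not pass without control replicate 1 (-0.21, edgeR adjusted p = 0.151) or control replicate 3 (-0.29, edgeR adjusted p = 0.0706), and the authors' deposited table gives -0.29 with an adjusted p of 0.059. The PMA value did not pass without PMA replicate 2 (-0.20, edgeR adjusted p = 0.134), PMA replicate 3 (-0.28, edgeR adjusted p = 0.0602) or control replicate 1 (-0.22, edgeR adjusted p = 0.096). On the log2(TPM + 1) scale the As2S2 value was -0.30 (limma adjusted p = 0.23), and after centring the PMA value was -0.29 (limma adjusted p = 0.18). The other subunits of the IKK complex did not pass in either comparison with control. CHUK, the kinase of the noncanonical route, was at 0.05 ± 0.13 with As2S2 and 0.02 ± 0.13 with PMA. IKBKG, the regulatory subunit, was at 0.29 ± 0.12 with As2S2 (edgeR adjusted p = 0.0545) and -0.11 ± 0.12 with PMA; none of its 9 estimated counts was whole, so its level is uncertain.

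Since NFKB2 and RELB belong to the noncanonical route, the kinase MAP3K14 that drives it and the complex that keeps MAP3K14 low (TRAF2, TRAF3 and BIRC2, with BIRC3) were read out whole; this group was drawn up after its values were seen. MAP3K14 averaged 5.30 ± 1.03 CPM with As2S2, 2.37 ± 0.237 CPM with PMA and 3.03 ± 0.829 CPM in control (SD, n = 3 each). It was 0.81 ± 0.21 higher in As2S2 than in control (edgeR adjusted p = 0.0051) and at -0.35 ± 0.23 in PMA minus control (edgeR adjusted p = 0.198). TRAF2 was at 0.42 ± 0.12 with As2S2 (edgeR adjusted p = 0.00921) and -0.48 ± 0.12 with PMA (edgeR adjusted p = 0.00265). TRAF3 was at -0.36 ± 0.09 with As2S2 (edgeR adjusted p = 0.00509) and -0.25 ± 0.09 with PMA (edgeR adjusted p = 0.0243). BIRC2 passed in neither, at -0.10 ± 0.16 and 0.04 ± 0.16. Values of MAP3K14, TRAF2 and BIRC2, and of TRAF3 with PMA, were not read out under the alternative fits. How far they depend on single libraries or on the scale was not tested.

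The remaining genes of the pathway were taken from 7 lists with 116 genes, of which 95 were tested. With As2S2 28 were higher and 24 lower, where 39.9% of all tested genes passed, and the median log2 fold change was 0.11. With PMA 49 were higher and 23 lower, where 61.9% of all tested genes passed, and the median was 0.35. On the log2(TPM + 1) scale these splits were 16 higher and 19 lower with As2S2, and 32 higher and 35 lower with PMA. Beside the counts of the lists below stand the same shares of all tested genes, 20.3% higher and 19.6% lower with As2S2, and 30.8% higher and 31.1% lower with PMA. The 6 other IkB proteins and their relatives included 2 higher and 1 lower with As2S2, and 3 higher and 1 lower with PMA. NFKBID, a nuclear IkB protein, was at 1.09 ± 0.18 with As2S2 (edgeR adjusted p = 0.000138) and 0.60 ± 0.18 with PMA (edgeR adjusted p = 0.00921), but on the log2(TPM + 1) scale the As2S2 call was lost (0.43, limma adjusted p = 0.158) and the PMA value turned to -0.14. After centring on each library's median neither NFKBID value passed (limma adjusted p = 0.0875 with As2S2 and 0.432 with PMA), nor did the PMA value without control replicate 1 (0.43, edgeR adjusted p = 0.0515). NFKBIB, the IkB protein that holds canonical dimers in the cytoplasm, was at -0.65 ± 0.11 with As2S2 and -0.77 ± 0.11 with PMA (edgeR adjusted p = 0.000141 and 1.01e-05). NFKBIZ, a nuclear IkB protein, was at 0.29 ± 0.16 with As2S2, not passing (edgeR adjusted p = 0.17), and 1.05 ± 0.16 with PMA (edgeR adjusted p = 1.98e-05). BCL3, the nuclear partner of the NFKB1 and NFKB2 products, was at 0.58 ± 0.17 with As2S2 (edgeR adjusted p = 0.014) and -0.41 ± 0.19 with PMA, not passing (edgeR adjusted p = 0.0649). Its As2S2 value did not pass without As2S2 replicate 3 (0.49, edgeR adjusted p = 0.0635), without control replicate 1 (0.40, edgeR adjusted p = 0.067) or on the log2(TPM + 1) scale (0.46, limma adjusted p = 0.103).

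Of the 20 genes of the IKK complex and the steps above it, all tested, 5 were higher and 5 lower with As2S2, and 4 were higher and 7 lower with PMA. Over all tested genes, 39.9% passed with As2S2 and 61.9% with PMA. RBCK1, part of the complex that builds linear ubiquitin chains, was at -0.63 ± 0.11 with As2S2 and -0.72 ± 0.11 with PMA (edgeR adjusted p = 0.000217 and 2.06e-05). TAB2, which ties ubiquitin chains to the kinase MAP3K7, was at -0.57 ± 0.11 with As2S2 and -0.71 ± 0.11 with PMA (edgeR adjusted p = 0.000572 and 2.78e-05). TRAF6, a ubiquitin ligase of interleukin receptors, was at 0.52 ± 0.12 with As2S2 and 0.51 ± 0.13 with PMA (edgeR adjusted p = 0.00316 and 0.00204), but on the log2(TPM + 1) scale the As2S2 call was lost (0.38, limma adjusted p = 0.108) and the PMA value turned to -0.18. The PMA call was also lost after centring (0.18, limma adjusted p = 0.322). Only 3 of the 6 genes of the CARD, BCL10 and MALT1 list were tested; the list links protein kinase C to IKK. BCL10 was higher at 0.29 ± 0.11 with As2S2 (edgeR adjusted p = 0.048) and 0.39 ± 0.11 with PMA (edgeR adjusted p = 0.00542). The As2S2 call was lost under most alternatives, among them each other scaling, DESeq2, no filter and each of the As2S2 libraries left out, with adjusted p of 0.0508 to 0.379. The PMA value turned to -0.0090 on the log2(TPM + 1) scale.

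Among 13 tested negative regulators of the pathway other than the inhibitors above, 4 were higher and 0 lower with As2S2 (9 did not pass), and 6 were higher and 4 lower with PMA, where 39.9% and 61.9% of all tested genes passed. TRAF1 had the largest value of this list with PMA, at 2.88 ± 0.16 (edgeR adjusted p = 2.78e-10). With As2S2 TRAF1 was at -0.53 ± 0.21 and did not pass (edgeR adjusted p = 0.056). PDLIM2 was at 0.71 ± 0.16 with As2S2 and -0.69 ± 0.18 with PMA (edgeR adjusted p = 0.00219 and 0.00288). ZC3H12A, an RNase that destroys cytokine transcripts, was at 0.75 ± 0.16 with As2S2 and 1.46 ± 0.16 with PMA (edgeR adjusted p = 0.0015 and 5.78e-07). RNF11, a partner of TNFAIP3, was at 0.43 ± 0.07 with As2S2 and 0.91 ± 0.07 with PMA (edgeR adjusted p = 7.58e-05 and 5.32e-09). TAX1BP1, another partner of TNFAIP3, was lower with PMA at -0.89 ± 0.14 (edgeR adjusted p = 5.42e-05). Of 19 tested receptors and adaptors, 4 were higher and 8 lower with As2S2, and 6 were higher and 9 lower with PMA. CD40, a receptor that feeds both routes, averaged 22.8 ± 1.12 CPM with As2S2, 21.4 ± 0.176 CPM with PMA and 9.92 ± 1.2 CPM in control, or 1.20 ± 0.11 and 1.11 ± 0.11 above control (edgeR adjusted p = 3.65e-07 and 1.79e-07). IL1RAP, the accessory chain of the interleukin receptor, was at -1.28 ± 0.12 with As2S2 and -1.14 ± 0.12 with PMA (edgeR adjusted p = 6.94e-07 and 4.84e-07). TNFRSF1A, the main receptor of tumour necrosis factor, was at -0.74 ± 0.09 with PMA (edgeR adjusted p = 2.05e-06). In the other direction, TNFRSF12A was at 1.32 ± 0.16 with PMA (edgeR adjusted p = 1.62e-06). With As2S2 TNFRSF12A was at -0.22 ± 0.17 and did not pass (edgeR adjusted p = 0.318). IRAK2 was higher with both agents, at 1.07 ± 0.16 with As2S2 and 1.26 ± 0.16 with PMA (edgeR adjusted p = 6.09e-05 and 3.21e-06).

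Only 5 of 11 ligands were tested, 2 higher and 1 lower with As2S2, and 3 higher and 1 lower with PMA. Among all tested genes, 39.9% passed with As2S2 and 61.9% with PMA. IL1B, a cytokine that both activates NF-kB and is its target, averaged 220 ± 10.7 CPM with As2S2, 361 ± 13.9 CPM with PMA and 137 ± 8.49 CPM in control (SD, n = 3 each). Its log2 fold change was 0.69 ± 0.07 with As2S2 and 1.40 ± 0.07 with PMA (edgeR adjusted p = 1.53e-06 and 6.15e-11).

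Among the 7 lists, the known NF-kB targets had the median furthest from 0 in As2S2 minus PMA. With PMA 26 of the 29 tested targets were higher and 1 was lower, with a median log2 fold change of 1.45, where 30.8% of all tested genes were higher and 31.1% lower. With As2S2 10 were higher and 9 lower, with a median of 0.17, where 39.9% of all tested genes passed. In As2S2 minus PMA, 1 was higher and 22 were lower, with a median of -0.92, where 30.9% of all tested genes were higher and 30.6% lower. Some targets had few counts outside PMA and passed the low-count filter through the PMA libraries. CCL3 had 8, 1249 and 23 counts in As2S2, PMA and control, and BCL2A1 had 25, 114 and 28. Such genes could be counted only as higher with PMA, and how far they raise these counts and medians was not tested. The chemokine CCL4 averaged 0.173 ± 0.0625 CPM with As2S2, 39.6 ± 1.35 CPM with PMA and 0.573 ± 0.154 CPM in control, and its PMA log2 fold change was 6.11 ± 0.17 (edgeR adjusted p = 3.47e-14). CCL3 and CCL4 have near-identical copies, so their assigned counts are uncertain. CXCL8, a neutrophil chemokine, averaged 31.6 ± 6.52 CPM with As2S2, 195 ± 4.28 CPM with PMA and 18.5 ± 1.46 CPM in control. GADD45B, a stress-response gene, averaged 8.13 ± 0.847 CPM with As2S2, 66.6 ± 3.58 CPM with PMA and 6.37 ± 0.681 CPM in control. CCL2, a monocyte chemokine, was lower with As2S2 (-1.21 ± 0.12, edgeR adjusted p = 1.27e-06) and higher with PMA (2.79 ± 0.10, edgeR adjusted p = 1.35e-12).

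ICAM1, an adhesion receptor, ran the other way and was the 1 target lower with PMA. It averaged 48.9 ± 5.2 CPM with As2S2, 14.3 ± 0.926 CPM with PMA and 28.1 ± 2.47 CPM in control, at 0.80 ± 0.10 with As2S2 (edgeR adjusted p = 1.48e-05) and -0.97 ± 0.11 with PMA (edgeR adjusted p = 9.51e-07). None of its 9 estimated counts was whole, so its level is uncertain. The consensus motif was present at 14 of the 27 targets in the table of starts (51.9%), beside 13.3% of all genes. In the other lists it was at 4 of 6 other IkB genes, 4 of 9 ligands, 4 of 13 negative regulators, 1 of 4 genes of the CARD list, 2 of 18 genes of the IKK list and 2 of 20 receptors and adaptors. The targets were listed because they are known NF-kB targets, so their higher share may come from that choice. It is no result about As2S2 or PMA. The summed TPM of 10 monocyte markers, all with counts, was 177 to 197 with As2S2, 293 to 318 with PMA and 168 to 176 in control. Most of it was CD68, also made by other cell types, at a mean of 163 TPM with As2S2, 276 TPM with PMA and 147 TPM in control. Of the defining markers, CD14 averaged 0.557 TPM with As2S2, 0.523 TPM with PMA and 0.86 TPM in control, ITGAM averaged 1.77 TPM with As2S2, 0.643 TPM with PMA and 3.2 TPM in control, and FCN1 and S100A8 had 0 to 2 counts in any group. Of the other monocyte markers, LYZ, CSF1R, VCAN and FCGR3A had higher mean TPM in PMA than in control, and S100A9 had lower. LYZ averaged 21.2 TPM with As2S2, 23.9 TPM with PMA and 19.8 TPM in control. CSF1R averaged 0.52 TPM with As2S2, 0.697 TPM with PMA and 0.383 TPM in control. Erythroid markers, mostly HBG2 at a mean of 10100 TPM with As2S2, 35000 TPM with PMA and 7720 TPM in control, summed to 10300 to 11100 TPM with As2S2, 35100 to 36000 TPM with PMA and 8080 to 8530 TPM in control. The 12 megakaryocyte markers summed to 154 to 181 TPM with As2S2, 139 to 156 TPM with PMA and 205 to 217 TPM in control. Most of the sum was ITGA2B with As2S2 and in control, but with PMA ITGA2B averaged 68.3 TPM and ITGB3 51.5 TPM. Against that sum, ITGB3, PPBP, GP1BB, GP9, TUBB1, SELP and THBS1 had higher mean TPM in PMA than in control; PPBP averaged 1.49 TPM with As2S2, 7.06 TPM with PMA and 0.41 TPM in control. The part of these shifts in the NF-kB results was not tested.

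**Figure D5:**
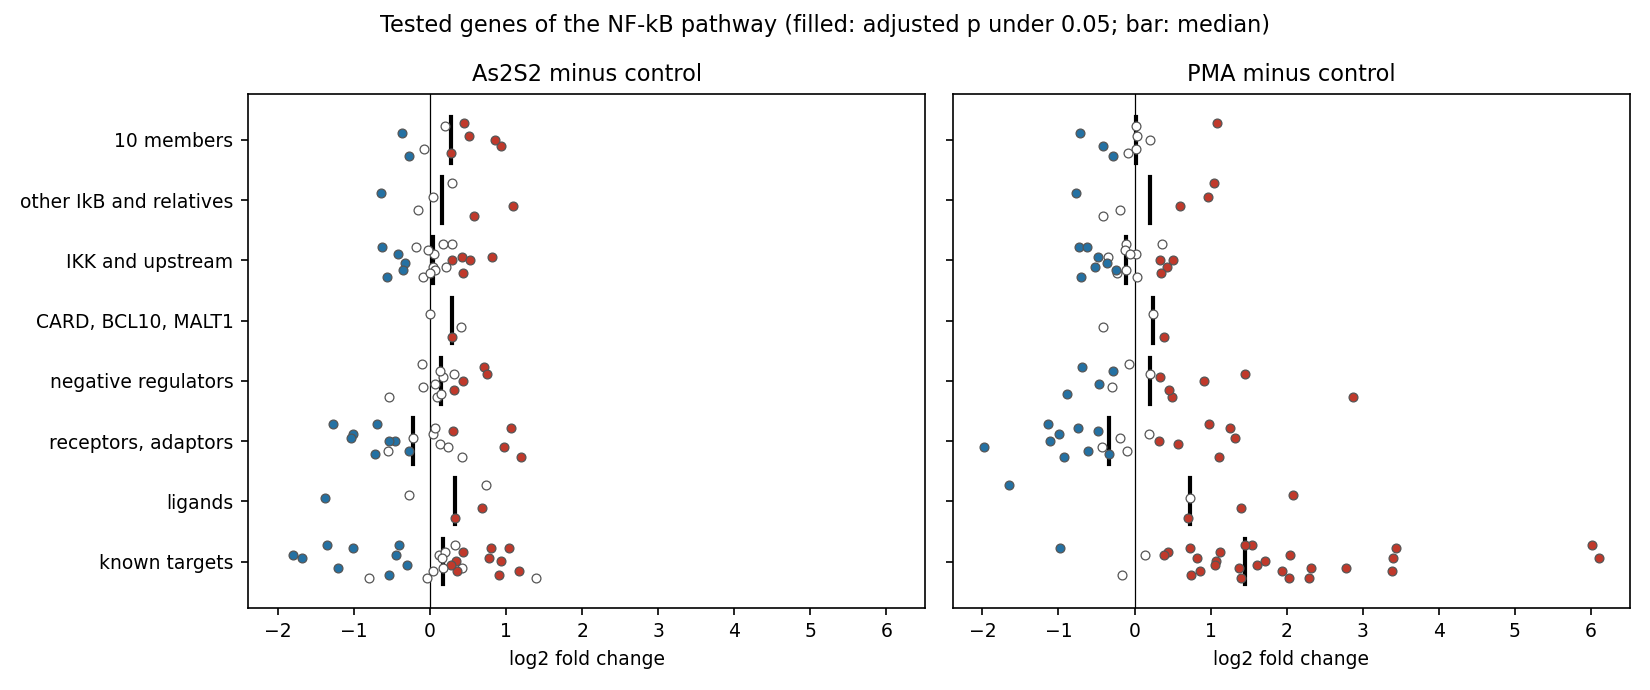
Log2 fold change (x axis) of every tested gene of the NF-kB set and of the 7 pathway lists, for As2S2 minus control and PMA minus control, with filled points for an edgeR adjusted p under 0.05 and a bar at each list's median. The known targets lie around a median of 0.17 with As2S2 and 1.45 with PMA, where 26 of 29 are higher.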

How the data were processed

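RNA of 9 MEG-01 libraries (3 As2S2, 3 PMA, 3 control) was measured by poly(A) RNA sequencing. The authors deposited, per the file headers, estimated counts and TPM per Ensembl gene for each library in 2 pairwise tables that hold the same control columns, together with a log2 fold change, a ratio and p-values of each treatment over control. The submitters' processing notes name fastp 0.22.0 and DESeq2. They name zebrafish builds, and the organism label of 1 control sample is not human, but the gene IDs of the deposited tables are human Ensembl IDs. The sources used here give no aligner, counter, strand or annotation. Without strand, reads of RELA and TNFAIP3 cannot be told apart from antisense genes, which had 207 against 14472 and 190 against 5597 counts.

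The estimated counts were rounded to whole numbers, filtered with filterByExpr, scaled by TMM and fitted over all 9 libraries with the quasi-likelihood test of edgeR 4.0.16 (R 4.3.3). P-values were adjusted by Benjamini-Hochberg over 14592 genes, with a threshold of 0.05. The SE was the log2 fold change over the root of F. CPM are TMM-scaled. Alternatives were DESeq2 1.42.0, upper-quartile and RLE scaling, filters on low counts, fits of 2 groups, a replicate block, limma 3.58.1 on log2(TPM + 1) and each library left out. Leaving out As2S2 replicate 1 with control replicate 2, and TPM centred on the median of tested genes in each library, were chosen after seeing the data. The fit was tested on simulated data. The 10 genes, the lists and the tests were chosen with earlier results of these data known. From each list, up to 4 genes with the smallest adjusted p in a comparison with control were taken, and some are not described. Alternatives were read gene by gene only for the tested NF-kB genes and, in the same comparison, for the genes so taken. Promoter sequences are RefSeq's, in GRCh38.p14.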

Additional observations from a re-analysis of the deposited data

How the results depend on the processing

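Of the values of the 9 tested NF-kB genes under the alternatives, 444 kept their direction and their side of the threshold, 24 lost a call, 16 gained one and 29 turned direction. With 1 library left out, 5 to 7, 3 to 5 and 5 to 7 NF-kB genes passed in As2S2 minus control, PMA minus control and As2S2 minus PMA. Of the pathway lists, 16 higher and 19 lower, 32 and 35, and 34 and 29 genes passed under limma on log2(TPM + 1) for As2S2 minus control, PMA minus control and As2S2 minus PMA, against 28 and 24, 49 and 23, and 21 and 40 as reported; after centring they were 26 and 11, 47 and 18, and 16 and 41. The total counts of called genes, higher and lower together, stayed within 1.5 times of those reported, except that 4 NF-kB genes passed for As2S2 under limma on log2(TPM + 1), 4 under the same after centring on each library's median, and 7 passed for PMA without both control replicate 2 and As2S2 replicate 1. Those 7 added RELB (0.28), NFKBIE (0.25) and TNFAIP3 (-0.16). IKBKB in As2S2 minus PMA was -0.0026 with RLE scaling, -0.052 with upper-quartile scaling, -0.0026 with DESeq2, -0.0028 with the stricter filter and -0.068 to 0.079 with 1 library left out. For PMA minus control without the filter, RELA was -0.031, REL -0.030 and NFKBIE -0.020. On the log2(TPM + 1) scale RELA was -0.31, RELB -0.13, REL -0.0020, NFKBIE -0.31, BCL10 -0.0090, UBE2N -0.32, TRAF6 -0.18 and NFKBID -0.14 for PMA minus control. OTULIN was -0.0062 and REL 0.0070 for As2S2 minus control, and REL was 0.0089 for As2S2 minus PMA. After centring, REL was 0.14 and TNFSF13B 0.013 for As2S2 minus control, and REL, at 0.26 TPM or less in every library, passed at 0.36 for PMA minus control and -0.22 for As2S2 minus PMA. Without control replicate 2 and As2S2 replicate 1 together, REL was -0.34 for PMA minus control and -0.50 for As2S2 minus control. With the replicate block it was 0.0036 for As2S2 minus control. With 1 library left out, PMA minus control ranged over -0.026 to 0.087 for RELA, -0.34 to 0.25 for REL and -0.10 to 0.25 for NFKBIE, and REL over -0.42 to 0.16 for As2S2 minus control and -0.31 to 0.12 for As2S2 minus PMA. The cause was not tested.

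The correlations of same-numbered deviations from the group mean were 0.149, 0.0844 and -0.073 for As2S2 and control, and -0.0691 to 0.0393 for the other pairs. With 3 libraries in a group, and As2S2 replicate 1 and control replicate 2 standing apart under different numbers, these values show no pairing by replicate number but cannot exclude it. With the replicate block 7, 4 and 6 NF-kB genes passed in As2S2 minus control, PMA minus control and As2S2 minus PMA. Counts of BIRC3 were too low for the test, and REL passed in none of the fits of counts run.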
